A study of Mus musculus with 18 samples.

Results

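The globin and heme metabolism genes in these livers are 9 genes of 55487 in the count table, taken by symbol: the adult beta globins Hbb-bs and Hbb-bt, the adult alpha globins Hba-a1 and Hba-a2, the heme synthesis enzymes Alas1, Alas2, Alad and Fech, and the heme-degrading enzyme Hmox1. All 9 had enough counts to be tested in both comparisons. The genes were selected on symbol with the differences in CPM between these same groups in view, so their values are a description, and an adjusted p beside a member says where it stands in the fit across all genes and is no independent evidence. RNA came from whole livers of 18 male C57BL/6J mice, 6 per group and 1 library per mouse, bought at 7 weeks of age. Each mouse received an adeno-associated virus, AAV8 with the hepatocyte promoter TBG, 1 week before 16 weeks of diet. CON-GFP mice carried the GFP vector and ate the purified control diet, FPC-GFP mice carried the GFP vector and ate the FPC diet (high fat with added fructose, palmitate and cholesterol, and sugar water), and FPC-LIPA mice carried the vector for human LIPA, which encodes lysosomal acid lipase, on the same FPC diet. The table holds mouse genes only, so mouse Lipa (243 ± 33.9 CPM in CON-GFP, 336 ± 59.3 in FPC-GFP and 300.2 ± 44.8 in FPC-LIPA, mean ± SD, n = 6 each) is no check of the human transgene.

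Hemoglobin is a tetramer of alpha and beta globin chains, each holding 1 heme, and in adult mice it is made by erythroid cells of the marrow and spleen. Reticulocytes and red cells in the blood vessels carry globin mRNA into a whole liver sample. Heme itself is made from glycine and succinyl-CoA, starting in mitochondria with 5-aminolevulinate synthase, whose form ALAS1 serves hepatocytes, largely for cytochrome P450 enzymes, and whose form ALAS2 serves erythroid cells. ALAD joins the product into a ring precursor, FECH inserts iron at the end of the pathway, and heme oxygenase 1, the product of Hmox1, opens the heme ring and is induced by heme and by oxidative stress through NRF2. Macrophages that engulf red cells are known for high heme oxygenase 1.

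Both globin pairs are near copies, which bears on how their reads can be shared out. The coding sequences of Hba-a1 and Hba-a2 are 429 bases long and differ at 1 base (C381T, Hba-a1 first, counted from the A of the start codon), and those of Hbb-bs and Hbb-bt are 444 bases long and also differ at 1 base (C417T, Hbb-bs first). The 41 bases around each difference are shown in the sense direction with the differing base in capitals, from GENCODE M21 on GRCm38, at chr11:32284323-32284363, chr11:32297140-32297180, chr7:103826672-103826712 and chr7:103812663-103812703 in turn.
Hba-a1: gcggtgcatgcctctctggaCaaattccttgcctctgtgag
Hba-a2: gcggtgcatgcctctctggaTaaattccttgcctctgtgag
Hbb-bs: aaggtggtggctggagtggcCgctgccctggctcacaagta
Hbb-bt: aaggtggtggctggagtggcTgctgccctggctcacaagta
Of all 150-base stretches, the length of 1 read, 48.4% of the Hba-a1 transcript and 65.7% of the Hba-a2 transcript stand unchanged in the partner, and the shares are 58.7% for Hbb-bs and 50.7% for Hbb-bt. How the authors counted reads that map to several places is not given in the sources used here, so the split within a pair is uncertain, and the sum of each pair is given beside its members.

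The globin promoters are shown because the members of each pair moved together. The part of shared reads in this was not tested. RefSeq sequence on GRCm38.p6 covered 7 of the 9 members, and Fech and Hmox1 were not among them. The 250 bases before the start site are shown for both beta globins, for Hba-a1 and for Alas2, the erythroid enzyme, at chr7:103827929-103828178 (minus strand), chr7:103813924-103814173 (minus strand), chr11:32283422-32283671 (plus strand) and chrX:150547167-150547416 (plus strand). Capitals mark matches on either strand to the TATA box (TATAA), the CAAT box (CCAAT), the CACCC box, and 2 forms of the GATA site, written AGATAA in the first form and GATAAG in the second, which can overlap.
Hbb-bs: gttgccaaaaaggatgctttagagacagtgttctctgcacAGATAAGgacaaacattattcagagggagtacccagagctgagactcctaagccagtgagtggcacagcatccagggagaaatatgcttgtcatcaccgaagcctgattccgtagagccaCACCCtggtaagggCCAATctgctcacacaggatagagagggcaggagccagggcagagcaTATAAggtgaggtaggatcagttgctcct
Hbb-bt: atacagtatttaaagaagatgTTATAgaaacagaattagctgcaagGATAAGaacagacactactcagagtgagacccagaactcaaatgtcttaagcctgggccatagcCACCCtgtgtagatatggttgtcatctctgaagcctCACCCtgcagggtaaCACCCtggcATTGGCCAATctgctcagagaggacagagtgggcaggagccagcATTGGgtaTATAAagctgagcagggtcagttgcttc
Hba-a1: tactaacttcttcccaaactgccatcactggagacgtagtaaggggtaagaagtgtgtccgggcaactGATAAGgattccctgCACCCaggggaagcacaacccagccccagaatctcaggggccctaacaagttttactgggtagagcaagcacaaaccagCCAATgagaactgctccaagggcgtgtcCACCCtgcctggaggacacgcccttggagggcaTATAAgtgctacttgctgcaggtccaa
Alas2: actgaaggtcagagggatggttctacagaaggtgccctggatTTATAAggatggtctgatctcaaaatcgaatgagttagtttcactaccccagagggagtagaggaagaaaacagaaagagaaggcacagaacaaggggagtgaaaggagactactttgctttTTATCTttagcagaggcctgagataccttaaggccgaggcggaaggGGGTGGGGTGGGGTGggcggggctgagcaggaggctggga
The Hba-a2 promoter is the same as that of Hba-a1 over all 247 bases that both windows hold. TATAA stands 29 bases before the start of Hbb-bs, 28 before that of Hbb-bt and 27 before that of Hba-a1, and each of these promoters also holds the CCAAT letters, the CACCC letters and the second form of the GATA site. Among 32851 promoters of this length, 22.8% hold TATAA, 33.8% hold CCAAT, 52% hold CACCC, 9.99% hold AGATAA and 6.55% hold GATAAG. Alas2 holds 3 neighbouring CACCC matches, 1 AGATAA match and no CCAAT match. These letter matches are a description and show no binding.

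The 3 libraries FPC-LIPA 36, 37 and 39 stood apart from all others, and calls of the LIPA comparison are given with and without them. Genes of the 86 cytosolic ribosomal proteins took 6.59%, 8.21% and 8.29% of the counts in FPC-LIPA 36, 37 and 39, against 2.19% to 2.99% in FPC-LIPA 31, 33 and 34, 1.46% to 1.82% in FPC-GFP and 1.77% to 2.58% in CON-GFP. Total counts lay between 16632146 and 37739301, and FPC-LIPA 37, the lowest, also carries a sample sheet number far from the rest, most of which lie from 55 to 68. A second, smaller comparison kept only those sheet numbers, which drops FPC-LIPA 37, FPC-GFP 20 and both CON-GFP 1 and CON-GFP 2. The protocol names a TruSeq RNA kit and a stranded mRNA kit without saying which library was made with which, so a difference in kit and the features of livers 36, 37 and 39 cannot be told apart. Hepatocyte genes led in every library, with Alb at 57553 ± 9418 CPM in CON-GFP, 52153 ± 7849 in FPC-GFP and 44225 ± 8489 in FPC-LIPA. Levels are in CPM, the count scaled to a common library size after TMM over 18 libraries. A gene was called with an adjusted p under 0.05 in edgeR's quasi-likelihood test and a change of at least 2-fold, and it passed the test with the adjusted p alone. Without FPC-LIPA 36, 37 and 39, 1.22% of 15246 genes passed. With sheet numbers 55 to 68 alone, 93 genes were called higher and 3 lower of 14736 for LIPA. For the diet it was 511 and 256 of 14640. These are calls, which also need a 2-fold change, and the share that passed there is not reported here. So few genes passed or were called with LIPA in these fits that 0 in a short list says little about that list.

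Of the 9 members, 2 were called in FPC-LIPA against FPC-GFP, both higher, beside 11.4% of all 14620 genes tested (10.3% higher), and 0 were called in FPC-GFP against CON-GFP, beside 7.2% of 14307 (4.76% higher). With the adjusted p alone, 2 and 1 passed, all higher, beside 21.2% and 23.8% (14.4% and 12.9% higher). The DESeq2 Wald test also called 2 and 0 members. Over all genes it called 1766 higher and 194 lower of 14620 for LIPA, and 683 and 373 of 14307 for the diet. The median log2 fold change of the members was 0.42 for LIPA and -0.04 for the diet, against 0.04 and 0.01 over all genes. Both comparisons use the FPC-GFP libraries, so they are not independent of each other. In whole tissue, fewer cells of a type and less RNA per cell cannot be told apart.

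**Figure D1:**
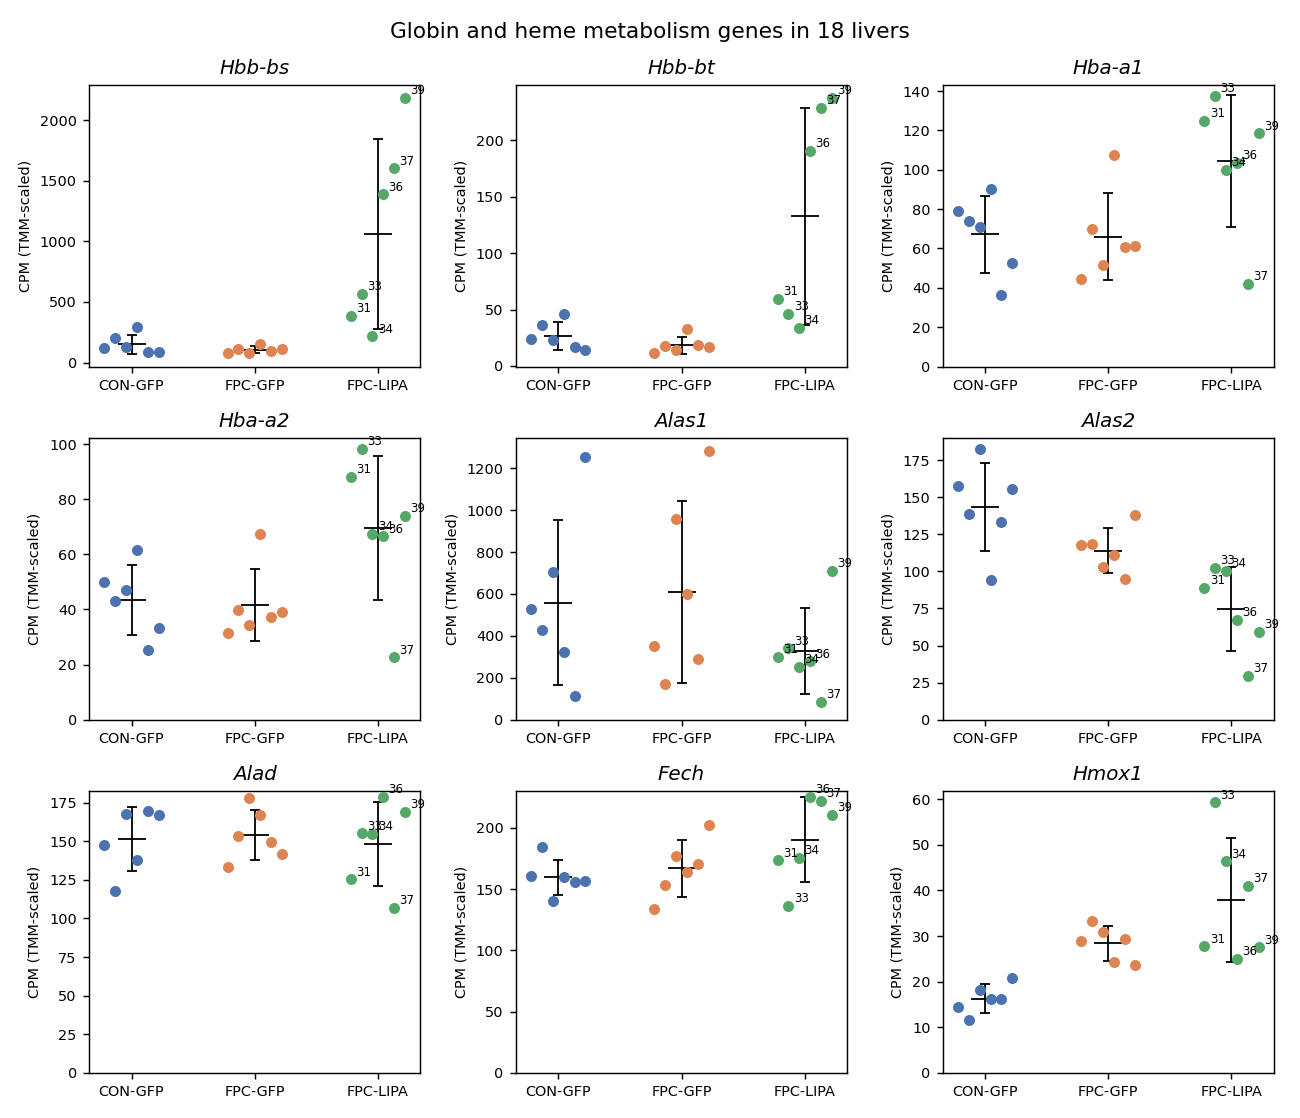
Level of each of the 9 genes in CPM (linear axes from 0) in the 18 livers, with points for libraries, numbered in FPC-LIPA, and bars for the mean ± SD of 6 livers. Hbb-bs and Hbb-bt lie higher in all 6 FPC-LIPA livers than in any FPC-GFP liver, and Hmox1 lies higher in all 6 FPC-GFP livers than in any CON-GFP liver.

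Beta globin mRNA was higher in livers given LIPA. Hbb-bs (ENSMUSG00000052305, chr7:103826534-103828096, minus strand) lay at 78.1 CPM at the lowest, 103 at the median and 155 at the highest in FPC-GFP. In FPC-LIPA it reached 385, 569 and 218 CPM in livers 31, 33 and 34 and 1389, 1604 and 2185 CPM in livers 36, 37 and 39. All 6 FPC-LIPA livers were above all 6 FPC-GFP livers, and the 3 libraries with the high ribosomal share were the highest. The log2 fold change was 3.33 ± 0.49 (SE), or 10.1-fold, with an adjusted p of 0.0079. Without FPC-LIPA 36, 37 and 39 it was 1.90 with an adjusted p of 0.0111, and with the trend of each library on gene length removed it was 2.48.

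Hbb-bt (ENSMUSG00000073940, chr7:103812524-103813996, minus strand), the lower of both beta globin genes, followed the same pattern. It lay at 11.2, 17.1 and 32.9 CPM (lowest, median, highest) in FPC-GFP. It reached 59.6, 46.1 and 33.6 CPM in FPC-LIPA 31, 33 and 34 and 191, 229 and 238 CPM in livers 36, 37 and 39. The groups did not overlap, though FPC-LIPA 34 exceeded the highest FPC-GFP liver by under 1 CPM. The log2 fold change was 2.86 ± 0.49 with an adjusted p of 0.00954, and without livers 36, 37 and 39 it was 1.35 with an adjusted p of 0.0421. Groups without overlap, as for this pair, were found in 7.58% of the genes tested, and in 3.81% with FPC-LIPA higher.

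Control-diet livers lay between the other groups and were more spread than FPC-GFP. Hbb-bs ranged from 85.7 to 290 CPM in CON-GFP with a median of 124, and Hbb-bt from 14.2 to 46.4 CPM with a median of 23.5. FPC-LIPA 34, at 218 CPM of Hbb-bs, was below CON-GFP 6, the highest control liver. Against CON-GFP, the FPC-GFP livers differed by -0.54 ± 0.28 for Hbb-bs and -0.55 ± 0.29 for Hbb-bt on the log2 scale, with adjusted p-values of 0.165 and 0.184.

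Alpha globin mRNA was not highest in the livers with the most beta globin. Hba-a1 (ENSMUSG00000069919, chr11:32283511-32284465, plus strand) lay at 44.6, 60.9 and 108 CPM in FPC-GFP and at 36.1, 72.3 and 90.3 CPM in CON-GFP (lowest, median, highest). In FPC-LIPA it was 125, 138 and 100.05 CPM in livers 31, 33 and 34, 103 and 119 CPM in livers 36 and 39, and 42.1 CPM in liver 37, which was below every FPC-GFP liver. Hba-a2 (ENSMUSG00000069917, chr11:32296489-32297298, plus strand) gave 88.1, 98.4, 67.4, 66.6 and 74.0 CPM in livers 31, 33, 34, 36 and 39 and 22.6 CPM in liver 37, against 31.5 to 67.3 CPM in FPC-GFP. The log2 fold changes were 0.67 ± 0.27 and 0.75 ± 0.29, with adjusted p-values of 0.0832 and 0.0731, and the groups overlapped. Without livers 36, 37 and 39, Hba-a2 passed at 1.04 with an adjusted p of 0.0425, while Hba-a1 stood at 0.88 with 0.0828. In that smaller comparison 3 of the 9 members passed, both beta globins and Hba-a2, all higher, beside 1.22% of all genes (1.11% higher).

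The gap between both chains is clearest within each library. The ratio of summed beta to summed alpha globin CPM was 1.08 to 1.29 in the 6 FPC-GFP livers and 1.12 to 2.21 in CON-GFP. It was 2.09, 2.60 and 1.504 in FPC-LIPA 31, 33 and 34 and 9.29, 28.3 and 12.6 in livers 36, 37 and 39. Every FPC-LIPA liver was thus above every FPC-GFP liver, and the first 3 lay partly within the control range. The ratio is a description with no test, it is not scaled for transcript length, and its part in common with the ribosomal share of the counts was not tested. Library 37, with the highest ratio, had the lowest summed alpha globin level of its group (64.7 CPM) beside a beta globin level of 1832 CPM.

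**Figure D2:**
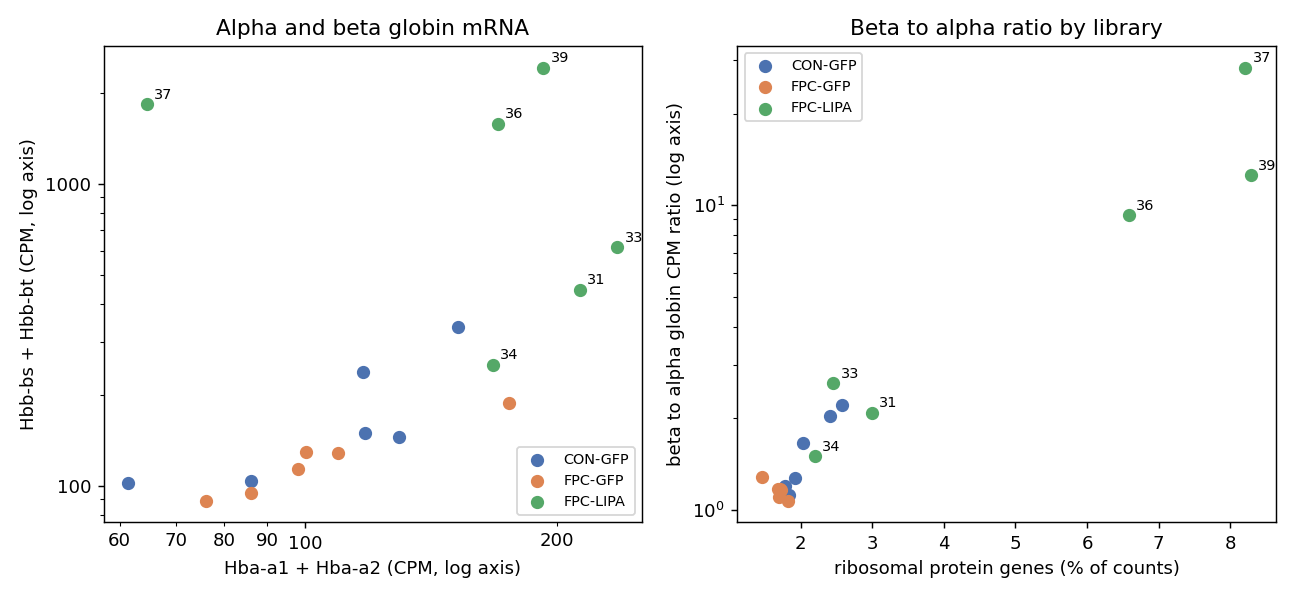
Left, summed beta against summed alpha globin level in CPM (log axes) in 18 livers, and right, the beta to alpha ratio (log axis) against the percent of counts on 86 ribosomal protein genes, with FPC-LIPA livers numbered. FPC-LIPA 36, 37 and 39 stand at ratios of 9.29 to 28.3, and the other 15 livers at 1.08 to 2.60.

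Within each pair the shares moved far less than the levels, though the split of reads within a pair is uncertain. Hba-a1 made up 58.8% to 63.2% of the alpha globin CPM in CON-GFP, 58.6% to 63.7% in FPC-GFP and 58.3% to 65.03% in FPC-LIPA. Hbb-bs made up 83.7% to 86.3% of the beta globin CPM in CON-GFP, 82.5% to 87.5% in FPC-GFP and 86.6% to 92.5% in FPC-LIPA. All 4 globins together took 0.0173% to 0.0393% of the counts in FPC-GFP, 0.0174% to 0.0490% in CON-GFP and 0.0450% to 0.223% in FPC-LIPA.

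Other genes of red cells gave no common direction. Of 30 erythroid genes listed, 29 were in the table and 15 were expressed enough to test. In FPC-LIPA against FPC-GFP, 3 rose and 1 fell, beside 21.2% of all genes that passed (14.4% higher). Among them, Bnip3l, a mitophagy receptor needed as reticulocytes mature, changed by 1.14 ± 0.34 on the log2 scale (adjusted p 0.032). The transferrin receptor gene Tfrc changed by 0.89 ± 0.28 and the membrane skeleton gene Sptb by -1.59 ± 0.47 (adjusted p 0.0384 and 0.0318). Without livers 36, 37 and 39, 0 of 16 tested genes of the list passed, beside 1.22% of all genes. With sheet numbers 55 to 68 alone 0 of 15 did, where 93 of 14736 genes were called higher and 3 lower. The first count of 0 is near what all genes gave. For the second, only calls over all genes are given, and these also need a 2-fold change. Both counts say little about the list. Bnip3l and Tfrc are also used by many other cells, as is Ube2l6, which did not pass (0.35 ± 0.22). The list's median log2 fold change was -0.12, against 0.04 over all genes.

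Defining red cell genes such as Rhag, Gata1 and Slc4a1 were at or near 0 in all groups. Rhag, of the Rh complex, had no count in any library, where 3 counts correspond to 0.0740 to 0.238 CPM, and the mean of Gata1, the main erythroid transcription factor, was at most 0.02 CPM in any group. Slc4a1, the anion exchanger of the red cell membrane, had means of 0.20, 0.21 and 0.18 CPM in CON-GFP, FPC-GFP and FPC-LIPA. The summed level of the list was 184 to 296 CPM in CON-GFP, 184 to 238 in FPC-GFP and 176 to 455 in FPC-LIPA, mostly Bnip3l and Ube2l6. The part of blood content in the globin values was not tested.

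The FPC diet went with lower levels of a pair of erythroid genes. Klf1, encoding an erythroid factor known to bind CACCC boxes, lay at 2.80 ± 0.56 CPM in CON-GFP, 1.02 ± 0.45 in FPC-GFP and 0.61 ± 0.45 in FPC-LIPA. Its log2 fold change with diet was -1.46 ± 0.28 (adjusted p 0.00236). Car1, a carbonic anhydrase of red cells and of some epithelia, lay at 9.03 ± 3.08, 1.91 ± 1.06 and 0.86 ± 0.41 CPM and fell by 2.26 on the log2 scale with diet (adjusted p 0.000659). For both, all 6 FPC-GFP livers were below all 6 CON-GFP livers, and groups without overlap were found in 10.6% of the genes tested. With LIPA neither passed (-0.67 ± 0.47 for Klf1 and -1.10 ± 0.45 for Car1). Of the 15 erythroid genes tested, these were the only 2 to pass with diet, beside 23.8% of all genes. In all, 9 of the 15 stood higher and 6 lower, with a median log2 fold change of 0.12 against 0.01 over all genes. Of the 13 other globin genes listed, Cygb, encoding cytoglobin, was the only one tested (0.35 ± 0.17 with diet and -0.08 ± 0.28 with LIPA, neither passing), and the embryonic genes Hbb-y, Hbb-bh1 and Hba-x had no count.

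Alas2 (ENSMUSG00000025270, chrX:150547375-150570638, plus strand) was lowest in the 3 livers with the most beta globin. It lay at 94.1, 147 and 182 CPM (lowest, median, highest) in CON-GFP and at 94.97, 114 and 138 CPM in FPC-GFP. In FPC-LIPA it was 88.8, 102 and 100.2 CPM in livers 31, 33 and 34 and 67.3, 29.6 and 59.3 CPM in livers 36, 37 and 39. The FPC-LIPA livers 31, 36, 37 and 39 were below all of FPC-GFP, and the groups overlapped. The log2 fold change was -0.34 ± 0.15 for the diet and -0.61 ± 0.25 for LIPA, with adjusted p-values of 0.098 and 0.087, so neither passed. Relative to summed alpha globin CPM, Alas2 was 0.308 to 0.599 in FPC-LIPA, 0.635 to 1.55 in FPC-GFP and 0.619 to 2.17 in CON-GFP. This ratio is a description with no test, in which all 6 FPC-LIPA livers were below all others. Which cells gave the Alas2 mRNA was not tested. Of the exon bases of Alas2, 12.9% are shared with Apex2 on the opposite strand, which was at 3.02 to 14.5 CPM, and whether the counting used strand is not given in the sources used here.

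Alas1 (ENSMUSG00000032786, chr9:106233455-106248654, minus strand), the enzyme form that limits heme synthesis in hepatocytes, varied more within groups than between them. It ranged from 114 to 1253 CPM in CON-GFP (median 477), from 173 to 1284 CPM in FPC-GFP (median 476) and from 85.5 to 709 CPM in FPC-LIPA (median 289). The highest liver of a group exceeded the lowest 11-fold, 7.44-fold and 8.29-fold. Its coefficient of variation of 70.6% in CON-GFP was above that of 98.8% of 12341 genes with a mean of at least 1 CPM there. The log2 fold changes, 0.12 ± 0.51 with diet and -0.89 ± 0.49 with LIPA, did not pass (adjusted p 0.884 and 0.185). Of the 6 FPC-LIPA livers, 5 lay at or below 340 CPM, as did FPC-GFP 12 and 19 and CON-GFP 6 and 7.

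Alad and Fech passed in neither comparison. Alad (ENSMUSG00000028393, chr4:62509169-62519918, minus strand) had means of 151 ± 20.8 CPM in CON-GFP, 154 ± 16.3 in FPC-GFP and 148 ± 27.1 in FPC-LIPA. Fech (ENSMUSG00000024588, chr18:64452914-64490251, minus strand) had means of 160 ± 14.2, 167 ± 22.9 and 190 ± 34.8 CPM. The log2 differences were 0.02 ± 0.12 and 0.05 ± 0.11 with diet and -0.05 ± 0.17 and 0.19 ± 0.17 with LIPA. The highest Fech levels of the study, 225, 222 and 211 CPM, were those of FPC-LIPA 36, 37 and 39, and without these livers the difference with LIPA was -0.04.

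**Figure D3:**
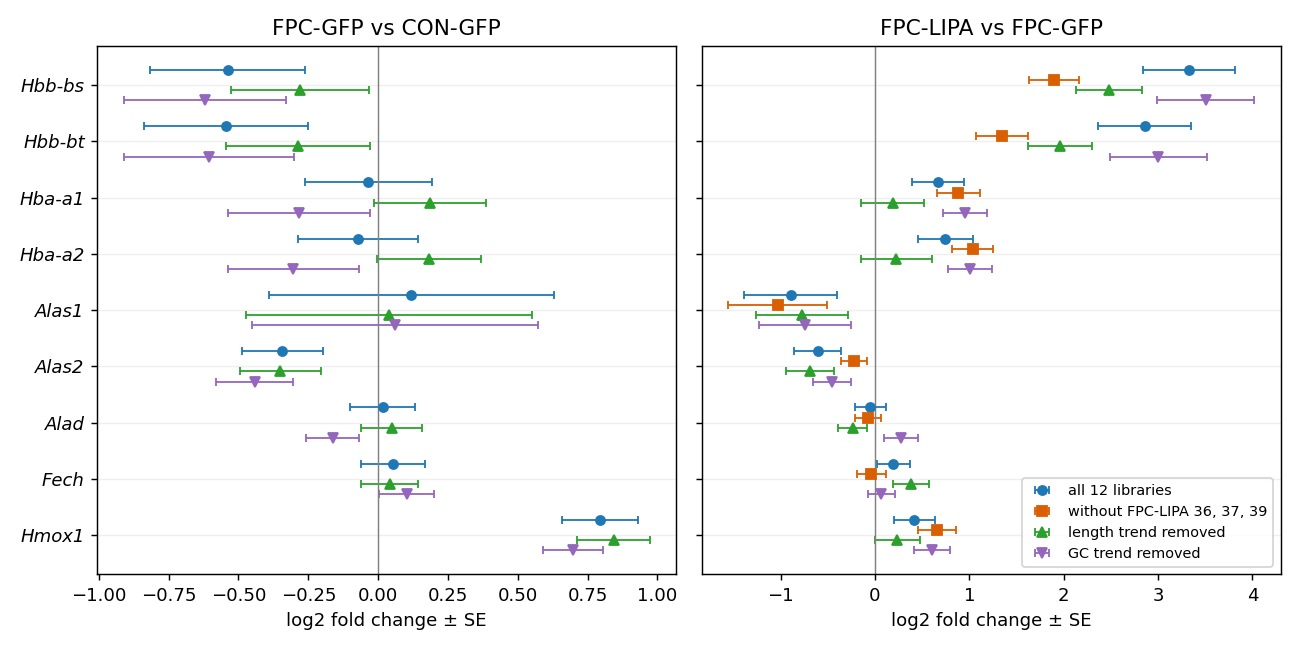
Log2 fold change ± SE of the 9 genes in both comparisons, from all 12 libraries, without FPC-LIPA 36, 37 and 39 (right panel only), and after correcting for gene length or for GC content. Hbb-bs and Hbb-bt lie right of 1 under all 4 settings in FPC-LIPA against FPC-GFP, and Hmox1 between 0.70 and 0.84 under the 3 settings of the diet comparison.

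The other heme synthesis enzymes gave 1 call of the test in each comparison, beside 23.8% of all genes with diet and 21.2% with LIPA. Of 5 such enzymes, Cpox, the coproporphyrinogen oxidase gene, fell with diet from 123 ± 20.2 to 89.5 ± 13.5 CPM (log2 fold change -0.47 ± 0.13, adjusted p 0.0217). With LIPA, Uros, the uroporphyrinogen III synthase gene, rose from 24.2 ± 3.68 to 38.7 ± 14.1 CPM (0.68 ± 0.22, adjusted p 0.0413). Urod, the most abundant beside Cpox, had log2 differences of -0.06 ± 0.12 and -0.19 ± 0.15. Without livers 36, 37 and 39, 0 of the 5 passed and Uros stood at 0.31 with an adjusted p of 0.30. With sheet numbers 55 to 68 alone, 0 of the 5 passed in either comparison, so the call of Cpox was lost as well. The list's medians were -0.06 and 0.08.

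Of 14 carriers and mitochondrial factors of heme synthesis, 1 rose with diet and 1 with LIPA, beside 12.9% and 14.4% of all genes. Slc48a1, encoding the transporter HRG1 that moves heme out of lysosomes, rose from 46.7 ± 4.17 to 75.5 ± 9.99 CPM with diet without overlap (0.68 ± 0.11, adjusted p 0.000738) and stood at -0.39 ± 0.22 with LIPA. Pgrmc1, encoding a heme-binding membrane protein, rose from 1008 ± 95.5 to 2428 ± 1820 CPM with LIPA (1.27 ± 0.39, adjusted p 0.0356), and stood at 0.12 without livers 36, 37 and 39 (adjusted p 0.759). It did not pass with sheet numbers 55 to 68 alone either. Slc25a39, encoding a mitochondrial glutathione carrier, did not pass in either comparison (0.20 ± 0.14 and -0.74 ± 0.34).

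Hmox1 (ENSMUSG00000005413, chr8:75093621-75100589, plus strand) was the member that went with the diet. It lay at 11.6, 16.2 and 20.8 CPM (lowest, median, highest) in CON-GFP and at 23.6, 29.1 and 33.3 CPM in FPC-GFP, so the groups did not overlap, as in 10.6% of the genes tested (6.19% with FPC-GFP higher). The log2 fold change was 0.79 ± 0.13, or 1.73-fold, with an adjusted p of 0.00122, and leaving out any 1 liver gave 0.72 to 0.87. In FPC-LIPA it was 27.7, 59.4 and 46.4 CPM in livers 31, 33 and 34 and 25.0, 41.0 and 27.5 CPM in livers 36, 37 and 39. Livers 33, 34 and 37 were above all FPC-GFP livers and the others were within their range, with a log2 fold change of 0.42 ± 0.22 (adjusted p 0.162). The lowest FPC-LIPA liver was at 25.0 CPM, and FPC-LIPA was not fitted against CON-GFP.

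Genes of macrophages and of the NRF2 response moved with diet beside Hmox1. Of 11 macrophage genes, 10 rose with diet and 6 with LIPA, beside 12.9% and 14.4% of all genes. The summed level was 312 to 464 CPM in CON-GFP, 568 to 902 in FPC-GFP and 787 to 1485 in FPC-LIPA. Adgre1, encoding F4/80, changed by 1.56 ± 0.18 with diet and 1.77 ± 0.40 with LIPA, and Cd5l by 1.52 ± 0.20 and 0.92 ± 0.25. Marco (2.11 ± 0.54) and Csf1r (1.39 ± 0.22) rose with diet and did not pass with LIPA (1.18 ± 0.95 and -0.13 ± 0.37). Spic, encoding a factor of red pulp macrophages that take up red cells, rose by 1.08 ± 0.25 with diet and 1.62 ± 0.38 with LIPA, and Slc40a1, the iron exporter ferroportin, stood at -0.07 ± 0.19 with diet and rose by 0.82 ± 0.28 with LIPA. Without livers 36, 37 and 39, Adgre1, Cd5l and Slc11a1 passed with LIPA (1.35, 1.08 and 1.05), beside 1.22% of all genes. With sheet numbers 55 to 68 alone 0 of the 11 passed with LIPA, where 93 of 14736 genes were called higher and 3 lower. The list's median log2 fold change with LIPA was still 0.70 there. With diet 10 still passed, where 511 of 14640 genes were called higher and 256 lower. Calls also need a 2-fold change, so they are a stricter mark than passing. The part of macrophage genes in the level of Hmox1 was not tested.

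Of 7 tested NRF2 target genes other than Hmox1, 5 rose with diet, beside 12.9% of all genes. Srxn1, encoding sulfiredoxin, rose by 2.02 ± 0.48, the quinone reductase gene Nqo1 by 0.80 ± 0.22, G6pdx by 0.84 ± 0.25 and Gclc, of glutathione synthesis, by 0.77 ± 0.25, while Gclm stood at 0.03 ± 0.14. FPC-GFP 11 held by far the most Srxn1, with 606 CPM against a group mean of 178. With LIPA, Nqo1 rose by 1.18 ± 0.35 and was the only one of the 7 to pass, beside 21.2% of all genes. Without livers 36, 37 and 39 none passed, beside 1.22% of all genes. With sheet numbers 55 to 68 alone, Srxn1, Nqo1 and G6pdx passed with diet, Gclc did not, and 0 passed with LIPA.

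Heme breakdown and scavenging genes were mixed, where 23.8% of all genes passed with diet and 21.2% with LIPA. With diet, Blvrb, a biliverdin reductase gene, rose from 193 ± 25.2 to 262 ± 26.2 CPM (0.43 ± 0.11, adjusted p 0.0148) and Hmox2, the constitutive heme oxygenase gene, fell from 57.3 ± 7.97 to 46.9 ± 2.25 CPM (-0.30 ± 0.10, adjusted p 0.0475). With LIPA, 3 of 9 rose and 2 fell. Both biliverdin reductase genes rose, Blvra by 0.82 ± 0.23 and Blvrb by 0.86 ± 0.29, and so did Hpx, encoding the heme-binding plasma protein hemopexin, by 0.66 ± 0.22. The genes of both receptors for scavenged complexes fell, Lrp1, which takes up heme bound to hemopexin, by 0.91 on the log2 scale without overlap and Cd163, which takes up hemoglobin bound to haptoglobin, by 1.09. Haptoglobin itself, Hp, stood at -0.34 ± 0.17 with diet and -0.02 ± 0.20 with LIPA. Without livers 36, 37 and 39, 0 of the 9 passed, with Cd163 at -1.54 (adjusted p 0.0651), Lrp1 at -0.52 (0.11), Blvra at 0.32, Blvrb at 0.03 and Hpx at 0.27. With sheet numbers 55 to 68 alone, Blvrb passed with diet, Hmox2 did not, and 0 passed with LIPA.

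**Figure D4:**
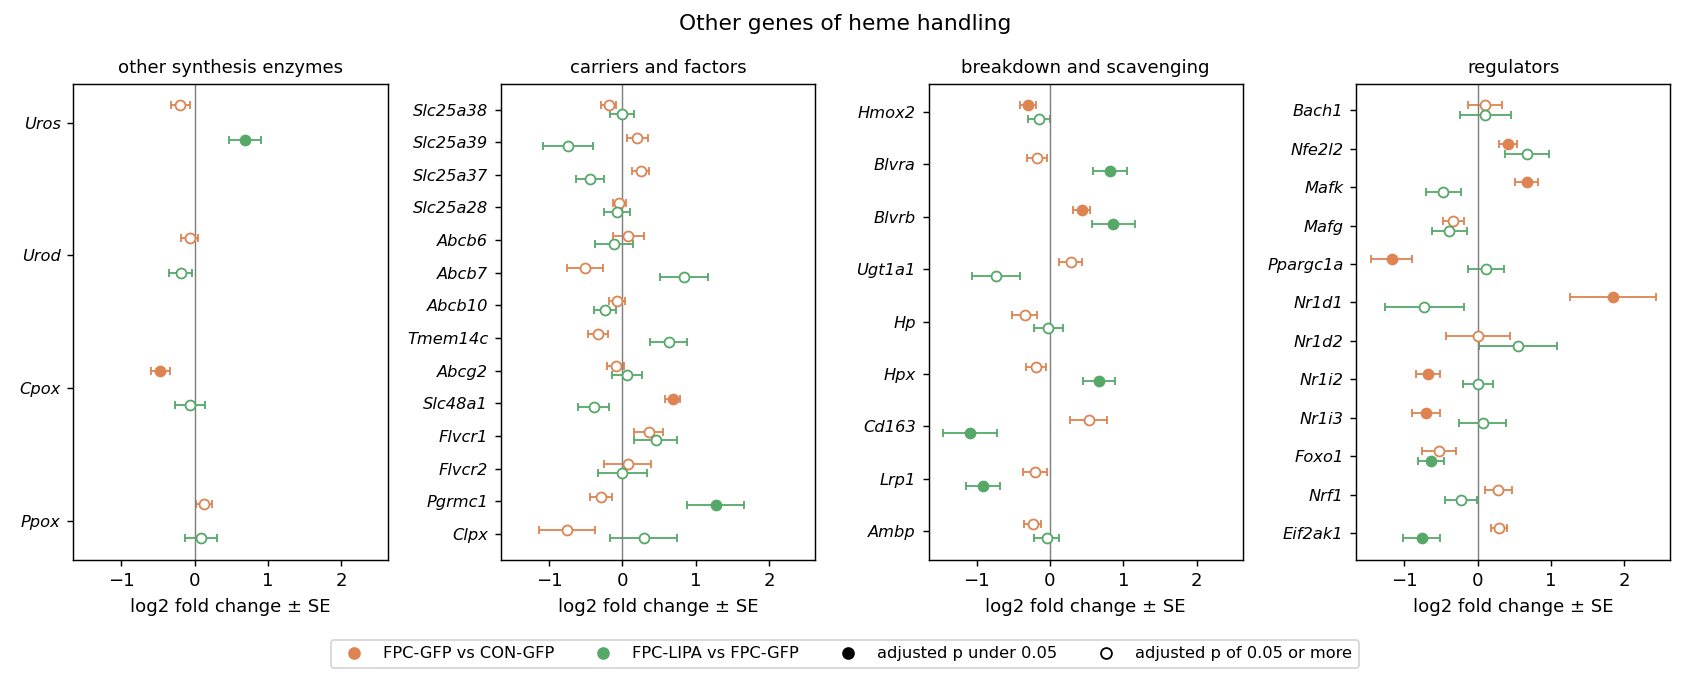
Log2 fold change ± SE of other heme genes in both comparisons, in 4 panels for synthesis enzymes, carriers and factors, breakdown and scavenging, and regulators, with filled points where the adjusted p was under 0.05. Of the 39 genes plotted, 10 are filled for the diet and 9 for LIPA.

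Of 12 regulators of the pathway, 3 rose and 3 fell with diet, beside 23.8% of all genes that passed. With LIPA 0 rose and 2 fell, beside 21.2% of all genes. The nuclear receptor genes Nr1i3 (CAR) and Nr1i2 (PXR), whose products induce Alas1 with drug-metabolising enzymes, fell by 0.70 and 0.67 on the log2 scale, and Ppargc1a, the fasting coactivator that induces Alas1, changed by -1.17 ± 0.28 (adjusted p 0.0144, 0.00994 and 0.00869). Nr1d1, the clock gene encoding the heme receptor REV-ERB alpha, rose by 1.85 ± 0.59, with 3.55 to 35.4 CPM in CON-GFP and 8.85 to 91.2 CPM in FPC-GFP, and Nfe2l2, encoding NRF2, rose by 0.41 ± 0.13. With LIPA, Eif2ak1, encoding the heme-regulated translation kinase HRI, and Foxo1 fell by 0.76 and 0.64 (adjusted p 0.042 and 0.0261), and neither passed without livers 36, 37 and 39. With sheet numbers 55 to 68 alone, Nr1i3, Mafk and Ppargc1a passed with diet, Nr1d1, Nr1i2 and Nfe2l2 did not, and 0 passed with LIPA.

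Among markers of other blood cells, a pair of neutrophil genes was higher in FPC-LIPA. Over all genes, 21.2% passed with LIPA and 23.8% with diet. S100a9 lay at 0.54 to 1.59 CPM in FPC-GFP and 2.27 to 10.4 CPM in FPC-LIPA (2.63 ± 0.44, adjusted p 0.00954), and S100a8 changed by 2.90 ± 0.70 (adjusted p 0.0183), while Csf3r did not pass (0.55 ± 0.45). Of 10 neutrophil genes only these 3 were tested, and without livers 36, 37 and 39 S100a9 stood at 1.52 (adjusted p 0.061) and S100a8 at 1.16. With sheet numbers 55 to 68 alone, S100a9 passed and S100a8 did not. The platelet genes Itga2b and Pf4, the only 2 of 10 tested, stood at 0.54 ± 0.27 and 0.88 ± 0.32 with LIPA and did not pass. Of 8 hepatocyte genes, Tat, Ass1 and Serpina1a fell with diet (by 1.48, 1.14 and 0.65) and Hnf4a with LIPA (by 0.98), while Alb and Apoa1 passed in neither. Without livers 36, 37 and 39, Hnf4a stood at -0.46 (adjusted p 0.225) and 0 of the 8 passed, and with sheet numbers 55 to 68 alone 0 passed with LIPA and Tat no longer passed with diet.

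Scaled by exon length, the order of the members' levels changed with LIPA. In FPC-GFP, Hbb-bs led with 137 ± 36.8 CPM per kb, followed by Alas1 (98.7 ± 70.2), Alad (82.2 ± 8.70), Hba-a1 (81.2 ± 27.3), Hba-a2 (62.3 ± 19.5), Alas2 (47.4 ± 6.24), Hbb-bt (26.1 ± 10.8), Hmox1 (16.2 ± 2.16) and Fech (12.1 ± 1.66). The ranges of all neighbours in this order overlapped. In FPC-LIPA, Hbb-bs stood at 1378 ± 1021 CPM per kb and Hbb-bt came next with 189 ± 137, and the ranges of all neighbours overlapped there too. In FPC-LIPA 31, 33 and 34, Hbb-bt stood at 84.8, 65.6 and 47.7 CPM per kb, below Hba-a1 at 154, 170 and 123. In CON-GFP the order was that of FPC-GFP but for Alad and Hba-a1, and Fech and Hmox1, which changed places. Exon length counts every annotated exon, so genes with long or many transcripts, such as Fech with 13838 bases, are placed low.

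The genes nearest in pattern were named by the mean absolute difference of z-scored log2 CPM over 18 livers among 12739 genes. Each globin was nearest to its partner, with 0.14 for both pairs. How far reads shared within a pair add to this was not tested. After Hbb-bt, Hbb-bs was nearest to Pet100 (0.21) and D730003I15Rik (0.22), and after Hbb-bs, Hbb-bt was nearest to Pfdn5 (0.22) and the ribosomal protein gene Rpl17 (0.22). The alpha globins had no other neighbour as near, with Gm11560 at 0.54 for both, Gstm6 at 0.59 for Hba-a1 and Mx1 at 0.51 for Hba-a2. Hba-a1 held rank 2749 in the order of Hbb-bs, and at the same distance (0.68) Hbb-bs held rank 55 in the order of Hba-a1. Alas1 was nearest to Usp2, a clock-controlled deubiquitinase gene (0.39), Ddhd2 and Rhbdd2, Alas2 to Bmyc (0.23), Snap47 and Masp1, and Alad to Dgat1 (0.35), Ndufs7 and Acaa1a. Fech was nearest to Mat2b (0.32), Lin54 and Ugt2b5, and Hmox1 to the leukocyte integrin gene Itgal (0.27), the phagosomal metal transporter gene Slc11a1 (0.27) and Vasp (0.28). In the order of Alas2, Alas1 held rank 3490, Hba-a1 rank 9821 and Hbb-bs rank 12601. These distances describe 18 livers that share groups and library features, and they carry no test.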

How the data were processed

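RNA from 18 mouse livers, 1 library per mouse and 6 mice per group, was sequenced in paired reads of 150 bases. The authors aligned the reads to mm10 with HISAT2 2.1.0 per the submitters' processing notes, counted them per gene with featureCounts of Subread, and deposited raw counts for 55487 genes. Libraries were made with a TruSeq RNA or a stranded mRNA kit, and which library had which is not stated. The strand setting, the annotation version and the handling of reads with several matches are not given in the sources used here. Of 23 columns, 18 were matched to samples by name and 5 were not used. Library totals ranged from 16632146 to 37739301 counts, and 3 counts were worth 0.0740 to 0.238 CPM. Replicates differed beyond sampling noise (chi-square per degree of freedom of 15.4 to 591).

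Each comparison was fitted alone over its 12 libraries with edgeR 4.0.16 in R 4.3.3 (filterByExpr, TMM, quasi-likelihood test), and p-values were adjusted over all genes tested by the Benjamini-Hochberg method. In simulated counts with 200 genes changed 4-fold, 186 were recovered in the diet comparison (14307 genes) and 179 in the LIPA comparison (14620 genes). False calls numbered 3 and 5. The simulated libraries had no feature shared by part of a group, as FPC-LIPA 36, 37 and 39 have. The simulation therefore says nothing about the fit under such a feature. The DESeq2 1.42.0 Wald test, other scalings and filters, removal of trends on length and GC content, all libraries in a single fit, only sheet numbers 55 to 68, and omission of each library were the alternatives. Omission of FPC-LIPA 36, 37 and 39 was chosen after seeing the data. The members and the gene lists were chosen with earlier results of these data known. Named genes were all members, the 2 most abundant tested genes of each list, up to 4 per list and comparison that passed with the greatest change, and the 3 genes nearest to each member in pattern. Slc25a39, Urod, Ube2l6 and the markers at or near 0 were named to describe their lists, and other genes outside this rule were named after their values were seen. Some list genes count in the lists' totals but are not reported here by name. Sequences are from GENCODE M21 and RefSeq.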

Additional observations from a re-analysis of the deposited data

Results flagged for a closer look

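In FPC-GFP 16, Hbb-bt stood at 32.9 CPM with the next liver of its group at 18.2 CPM, and Hba-a2 stood at 67.3 CPM with the next at 39.7 CPM. Both gaps, divided by the range of the 6 livers, were above Dixon's critical value. Of 30 sets of 6 values examined, these 2 were found, and chance gives about 1 in 20.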

How the results depend on the processing

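No paired analysis was possible because the groups share no replicate numbers. Hbb-bs and Hbb-bt were called in FPC-LIPA against FPC-GFP under all alternatives run, with log2 fold changes of 2.97 to 3.53 and 2.59 to 3.10 when 1 library was left out, and Hmox1 passed in the diet comparison under all of them. Of 189 alternative values of members for the diet, 165 kept direction and side of the threshold, and of 198 for LIPA, 183 did. With no fold minimum, 3410 genes and 1 member were called for the diet, in place of 1030 and 0, and 3102 genes for LIPA in place of 1671. The LIPA count was 1016 with library size alone, 96 with sheet numbers from 55 to 68, and 116 without FPC-LIPA 36, 37 and 39. Leaving out 1 library gave 856 to 2612, and the counts were 2612, 856, 902 and 950 when the library omitted was FPC-LIPA 33, 36, 37 or 39, and 1028, 1049 and 1026 when it was FPC-GFP 11, 12 or 20. Library size alone moved the median log2 fold change of all genes to 0.21 for the diet and -0.09 for LIPA, and the diet's higher and lower calls from 681 and 349 to 1054 and 225. The cause of these changes was not tested.

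Differences near 0 turned direction. For the diet, Hba-a1 was 0.18 with library size alone, 0.10 with sheet numbers 55 to 68, 0.19 with the length trend removed and -0.23 to 0.063 leaving out 1 library. Hba-a2 was 0.14, 0.0034, 0.18 and -0.27 to 0.050 under the same settings. Alas1 was -0.34 with sheet numbers 55 to 68 and -0.24 to 0.53 leaving out 1 library. Alad was -0.044 with sheet numbers 55 to 68, -0.16 with the GC trend removed and -0.045 to 0.056 leaving out 1 library, and Fech was -0.0075 to 0.11. For LIPA, Alad was 0.28 with the GC trend removed and -0.12 to 0.019 leaving out 1 library, and Fech was -0.038 without FPC-LIPA 36, 37 and 39. Some members passed only under an alternative. For LIPA, Hba-a1 and Hba-a2 passed without FPC-GFP 16 (0.86 and 0.94), without FPC-LIPA 37 (0.82 and 0.92) and with the GC trend removed (0.95 and 1.00), and Hba-a2 also in the DESeq2 Wald test and with all 18 libraries in a single fit. Alas2 passed for LIPA in that single fit (-0.61) and without FPC-LIPA 33 (-0.72), and for the diet with the GC trend removed and without CON-GFP 6 (-0.44 each). Hmox1 passed for LIPA with the GC trend removed (0.61). Among the other listed genes the text names, the call was lost for the diet by Nfe2l2 and Gclc with the length trend removed and by Blvrb with the GC trend removed. For LIPA it was lost by Blvrb, Cd163, Hpx, Foxo1, Pgrmc1 and Nqo1 with the length trend removed and by Bnip3l, Tfrc and Slc40a1 with the GC trend removed.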
